A study of Rattus norvegicus with 8 samples.

Results

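The genes described here are 6 transcription factors with known roles in neural or cell development: the orphan nuclear receptors Nr2f1 and Nr2c2, the POU-homeodomain factor Pou3f4, the basic helix-loop-helix factors Neurod2 and Mycl, and the zinc finger protein Zfp521. They were taken from the authors' deposited table of changed probes by gene symbol, and each has 1 probe there, so they make up 6 of the 582 listed probes, which are 3.83% of the 15207 probes of the array. Nr2f1, Pou3f4, Zfp521, Mycl and Nr2c2 stand in the list of higher probes and Neurod2 in the list of lower probes. Each sample is the whole medial prefrontal cortex (mPFC), taken when the rats were 6 months old. The 4 JFLX samples come from animals given fluoxetine, a serotonin reuptake inhibitor, at a dose of 10 mg/kg, starting on postnatal day 28 and ending on day 48, and the 4 control samples from animals given 5% sucrose vehicle on the same days. The labels state neither strain nor sex, nor do they say that each sample is its own animal, so the spread behind every p here may be a technical one. Control replicates 2 to 4 carry a description that mentions fluoxetine, but grouping here follows their titles, source names and protocol, which all give vehicle.

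Transcription factors of these families bind short DNA elements and set which genes a cell type uses. In the developing cortex Nr2f1 (COUP-TFI) patterns cortical areas, and it is also used in cortical interneurons. Neurod2 drives the differentiation of excitatory neurons after their last division and remains on in the adult cortex. Zfp521 promotes entry of mouse embryonic stem cells into the neural lineage, and Pou3f4 (Brn4) is best known for its role in the inner ear and in ventral forebrain development. Mycl is a MYC family member that binds DNA with MAX, and Nr2c2 (TR4) is a nuclear receptor that binds repeats of the same core element as Nr2f1.

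The probes show which part of each transcript was read. The 4 probes printed here, 5′ to 3′ as in the deposited table and with no letters in capitals, are of genes from the list of higher probes. Whether the Nr2c2 and Neurod2 probes read coding sequence was not tested. The Nr2f1 and Pou3f4 probes lie where the transcript encodes the DNA-binding part of the protein, namely the nuclear receptor zinc fingers and the end of the homeodomain. The Mycl probe lies in the helix-loop-helix, through which MYC proteins pair with MAX. Such stretches resemble those of related genes, and whether a related transcript also bound the probe was not tested.
Nr2f1: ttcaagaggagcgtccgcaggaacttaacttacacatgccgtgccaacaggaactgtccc
Pou3f4: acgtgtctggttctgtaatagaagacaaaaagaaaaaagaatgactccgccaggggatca
Mycl: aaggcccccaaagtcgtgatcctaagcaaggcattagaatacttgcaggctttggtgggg
Zfp521: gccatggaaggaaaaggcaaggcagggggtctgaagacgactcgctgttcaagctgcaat
Each is 60 bases long, and GC content ran from 41.7% for Pou3f4 to 55.0% for Zfp521 among these and stood at 45.0% for Neurod2 and 35.0% for Nr2c2. The deposited table places the probes on chromosome 2 from 5801041 to 5801100 (Nr2f1), X from 99288876 to 99288935 (Pou3f4), 5 from 142320310 to 142320369 (Mycl), 18 from 5015296 to 5015355 (Zfp521), 10 from 87112339 to 87112398 (Neurod2) and 4 from 126588976 to 126589035 (Nr2c2). No build is named for these positions (not given in the sources used here). No other listed probe shares a sequence with any of the 6.

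Values are the deposited log2 values, with each probe's control median set to 0. They show differences between arrays and not how strongly a gene is used. To enter the authors' lists, a probe needed a mean of 0.4 or more, or of -0.4 or less, over the JFLX arrays, together with a p no higher than 0.05 and a detection flag on most arrays of the group with the higher values. The members were therefore chosen on the contrast of JFLX against control, and their differences are given as a description, with no test read as support for them. In the authors' deposited table the members nearest the fold limit were Nr2c2 at 0.48 and Neurod2 at -0.48, and the one nearest the p limit was Zfp521 at 0.0420. Probes just outside these limits carry no gene name here. Nor do 1117 unlisted probes that met the limits of fold and p, 1088 of them higher. All 6 members were detected on all 8 arrays, as were 418 of the 582 listed probes.

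Nr2f1 was higher on the JFLX arrays, with a like spread in both groups. Its control values were -0.25, 0.0046, 0.24 and -0.0046 in replicates 1 to 4, and its JFLX values were 0.39, 0.74, 0.45 and 0.77. All 4 JFLX arrays lay above all 4 control arrays, by a gap of 0.14 between the nearest of them. The difference of the means was 0.59 ± 0.15 (SE, 4 arrays a group), a 1.51-fold difference, and the SDs of the groups were alike at 0.20. This SE and those below come from limma, a linear model that draws each probe's variance towards that of all probes. Kcnc1, a potassium channel and the 1 listed gene of 8 interneuron markers, stood at 0.50 ± 0.14 with all 4 JFLX arrays above the controls, and its part in the Nr2f1 difference was not tested. Nr2c2, the other nuclear receptor, had the smallest difference, 0.42 ± 0.16. Its JFLX values were close together, at 0.39, 0.54, 0.59 and 0.40, while the control values spread from -0.20 and -0.17 in replicates 1 and 4 to 0.17 in replicate 3 and 0.44 in replicate 2. Control replicate 2 lay above JFLX replicates 1 and 4, so the groups overlapped, and the control SD of 0.30 was larger than the JFLX SD of 0.0998.

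Pou3f4 stood at 0.65, 0.66, 1.03 and 1.11 in the JFLX replicates. In controls it stood at 0.81 in replicate 1 and at 0.061, -0.13 and -0.061 in replicates 2 to 4. The groups overlapped through control replicate 1 alone, which lay above JFLX replicates 1 and 2. The difference was 0.69 ± 0.23 (SE, n = 4 per group), and without control replicate 1 it was 0.90 ± 0.15. With any other single array left out it ran from 0.59 (without control replicate 3) to 0.76 (without JFLX replicate 1).

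Neurod2 was the single member with lower values in JFLX. Its control values were 0.14, -0.025, 0.025 and -0.20, and its JFLX values were -0.73, -0.66, -0.36 and -0.17. JFLX replicates 1 to 3 lay below all controls, whereas JFLX replicate 4 lay just above control replicate 4. The JFLX mean stood at -0.48 and the control mean at -0.016, a difference of -0.46 ± 0.15 (SE, 4 arrays a group), which puts JFLX at 0.725 times the control level. In bulk tissue, fewer cells of a type and less RNA per cell cannot be told apart. Of the 7 genes fixed as markers of excitatory neurons, the only other listed gene, the kinase Camk2a, stood at 0.56 ± 0.19 in the opposite direction. Syp, a synaptic vesicle protein and the 1 listed gene of 6 general neuronal markers, stood at -0.46 ± 0.11 and -0.44 ± 0.14 at its 2 probes. Glul, the 1 listed gene of 7 astrocyte markers, stood at -0.51 ± 0.11. Their part in the Neurod2 difference was not tested. No gene of the 3 marker lists for oligodendrocytes, their precursors and microglia was listed. Pecam1, the 1 listed gene of 5 endothelial markers, stood at 0.68 ± 0.25, with overlapping groups and a detection flag on 3 JFLX arrays. Markers on unlisted probes carry no names here and could not be checked.

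Zfp521 and Mycl varied most between the JFLX arrays. Zfp521 held steady in controls, at 0.073, 0.051, -0.051 and -0.17, but stood at 2.62, 0.32, 1.42 and 0.75 in JFLX replicates 1 to 4. The groups did not overlap, and the JFLX SD of 1.00, 9.17 times the control SD of 0.11, was the largest of all 582 listed probes. The difference was 1.30 ± 0.45 (SE, n = 4 per group), or 2.46-fold, and without JFLX replicate 1 it was 0.85 ± 0.25, which is 1.52 times smaller. From the probe's own variance alone the SE of the 1.30 was 0.50. Both SEs take the variance to be equal in the groups. Mycl had control values of -0.061, 0.061, 0.0895 and -0.17 and JFLX values of 1.55, 0.63, 0.17 and 0.89. The groups did not overlap, but JFLX replicate 3 exceeded the highest control by only 0.079. Its difference was 0.83 ± 0.27, and the JFLX SD of 0.58 was 4.82 times the control SD. JFLX replicate 1 was the highest JFLX array for both genes.

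**Figure D1:**
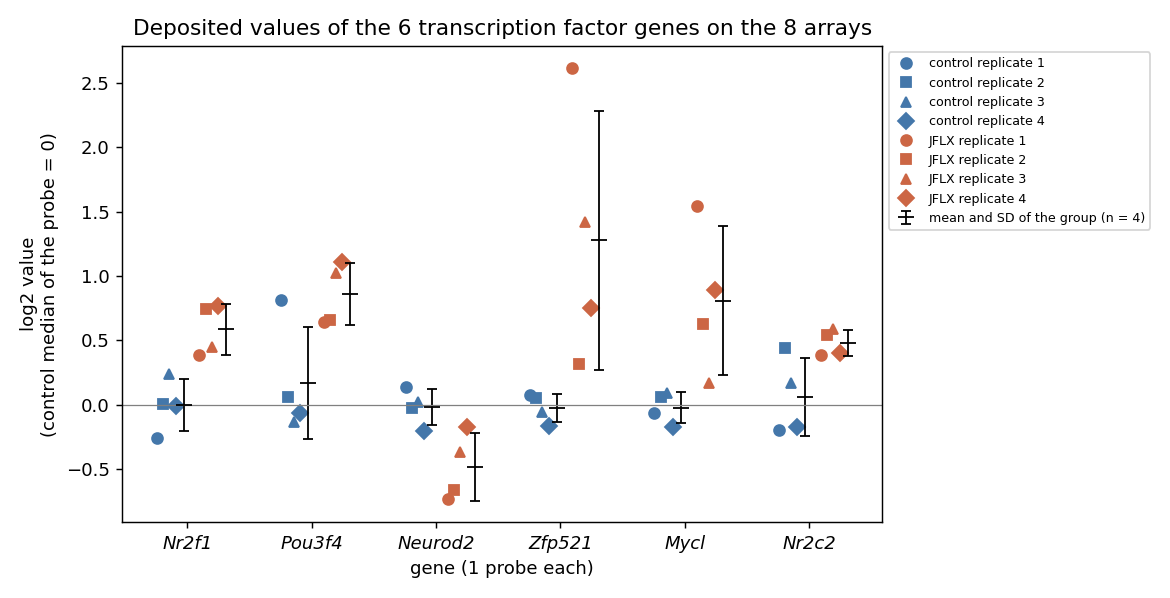
Deposited log2 values (vertical axis, control median of each probe at 0) of the 6 genes (horizontal axis) on each of the 4 control and 4 JFLX arrays, with group mean and SD as bars. The groups are apart for Nr2f1, Zfp521 and Mycl and overlap for Pou3f4, Neurod2 and Nr2c2, and Zfp521 in JFLX runs from 0.32 to 2.62.

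Over the members, 3 of 6 had groups that did not overlap, all 3 with JFLX above, where 13% of all probes did not overlap in either direction. JFLX lay wholly above at 10% of all probes and wholly below at 2.95%, and the groups were apart at 73.9% of the 322 listed higher probes and 68.8% of the 260 listed lower probes. On the intensity scale before scaling between arrays, Nr2f1, Zfp521 and Mycl overlapped, and Neurod2 was the member whose groups were apart, with JFLX below. Intensities are known for listed probes only, so no share over all probes can stand beside this, and nothing is read from it. Arrays also differed in brightness as a whole, with a median listed intensity of 36.7 to 51.0 over control arrays and 32.5 to 63.5 over JFLX arrays. In limma over all 15207 probes, 0 of the 6 members passed an adjusted p of 0.05, where 6.25% of all probes did, 5.89% higher and 0.355% lower, and all 6 had an unadjusted p under 0.05, where 15.5% of all probes did. The same linear model with each probe's own variance, adjusted likewise, also called 0. When the 1117 unlisted probes that met the authors' limits of fold and p were left out, 1088 of them higher, 6 probes passed in place of 950. Since listing required a low p on these arrays, nothing is read from either count. The median difference of the 5 higher members was 0.69, beside 0.57 over all listed higher probes and 0.045 over all probes. For Neurod2 the -0.46 stood beside a median of -0.59 over the listed lower probes.

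The spread within each group enters the p by which the members were chosen, so a small spread was favoured. The SDs here are given as a description only. JFLX SDs were above control SDs for Zfp521, Mycl and Neurod2 and below them for Nr2c2, Pou3f4 and Nr2f1, the last at a ratio of 0.968. Over all probes the median SD was 0.24 in controls and 0.269 in JFLX, and the JFLX SD was the larger at 56.6% of probes. The Zfp521 SD in JFLX exceeded that of 92.5% of all probes and the Mycl SD that of 80.2%. For Nr2c2 only 11.4% of probes had a smaller JFLX SD. In controls 75.5% of probes had a smaller SD than Pou3f4, whose control replicate 1 stood apart.

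**Figure D2:**
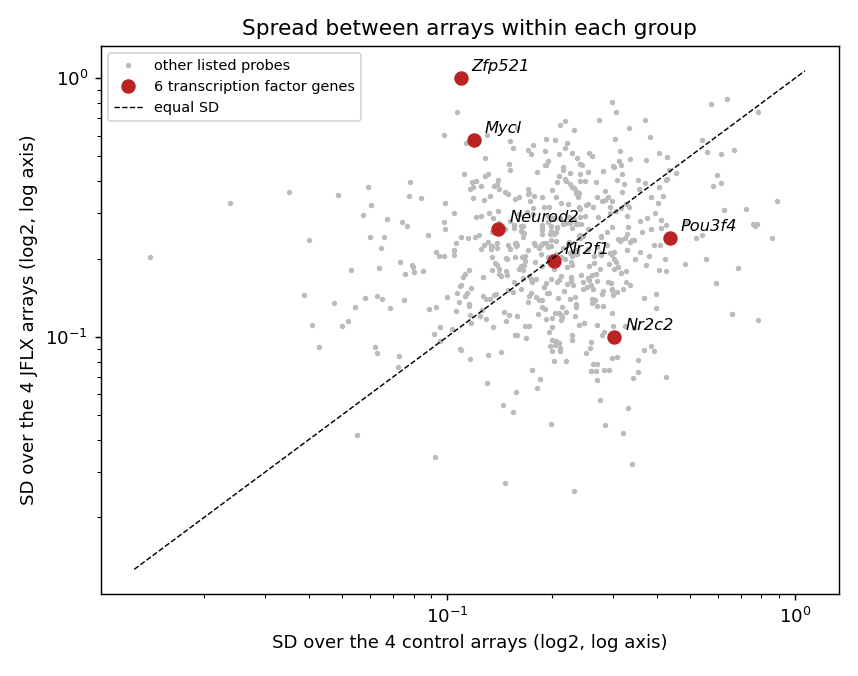
SD over the 4 JFLX arrays (vertical, log2 units on a log axis) against SD over the 4 control arrays (horizontal, log2 units on a log axis) for the 6 genes and the other listed probes, with a dashed line of equal SD. Zfp521 lies highest at a JFLX SD of 1.00 against 0.11 in controls, and Nr2c2 lies below the line at 0.0998 against 0.30.

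The order of the JFLX arrays differed between the genes. JFLX replicate 1, the highest for Zfp521 and Mycl, was the lowest for the other 4, namely Nr2f1, Pou3f4, Nr2c2 and Neurod2. It was the lowest JFLX array at 19.2% of all probes and the highest at 18.4%. JFLX replicate 4 was the highest for 3 of the 6, Nr2f1, Pou3f4 and Neurod2, and at 36.5% of all probes. These orders were noticed after the values were seen. When each value was taken as its deviation from its group mean, the correlation between members over the 8 arrays ran from -0.66 for Nr2f1 with Zfp521 to 0.71 for Pou3f4 with Neurod2, and it was 0.59 for Zfp521 with Mycl. These are descriptions over arrays that share hybridisation and scaling.

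The named listed genes whose deviations followed each member most closely over the 8 arrays were picked by the highest Pearson r, a choice among 582 probes over only 8 arrays. For Nr2f1 they were Pmel (r = 0.859), a melanosome protein, and the galactosyltransferase B3galt1 (r = 0.851). For Nr2c2 they were Bhlha15 (r = 0.963), a basic helix-loop-helix factor, and the tetraspanin Tspan5 (r = 0.928). Pou3f4 was matched by the stress-responsive factor Atf3 (r = 0.915) and by Ptk2, the focal adhesion kinase (r = 0.891). Neurod2 was matched by the small GTPase Diras1 and the leucyl-tRNA synthetase Lars1 (r = 0.922 for both). For Zfp521 they were Rasgrp1, an activator of Ras (r = 0.933), and Ppp1r15a, a stress-induced phosphatase subunit (r = 0.927). Mycl was matched by the laminin subunit Lamc1 (r = 0.901) and the ETS factor Elk1 (r = 0.895). Of these 12 genes, 6 were listed as higher and 6 as lower, and Bhlha15 and Atf3 were detected on 0 of the JFLX arrays.

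Brightness gives the depth behind these values, as background-subtracted intensity before the arrays were scaled to each other, and it cannot be compared between probes. Intensity columns are known by group and not by replicate. The Neurod2 probe was bright, at 3270, 3370, 4180 and 4210 in controls from lowest to highest and at 1910, 2300, 2340 and 3150 in JFLX, so that on this scale every JFLX array was below every control. Nr2f1 read from 84.9 to 114 in controls and 97.5, 133, 147 and 165 in JFLX, where the lowest JFLX array fell within the control range. For Zfp521 control arrays gave 12.5, 13.0, 15.6 and 17.3 and JFLX arrays 14.1, 17.9, 42.2 and 91.2. Only 2 JFLX arrays were thus well clear of the controls for Zfp521, and the lowest signal among listed probes detected throughout a group ran from 5.11 to 6.97 over control arrays and from 9.06 to 19.1 over JFLX arrays. Mycl read 28.3 to 37.9 in controls and 33.9, 38.5, 48.2 and 94.5 in JFLX, Pou3f4 50.1 to 111 and 76.7 to 137, and Nr2c2 40.7 to 71.2 and 34.9 to 74.8.

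**Figure D3:**
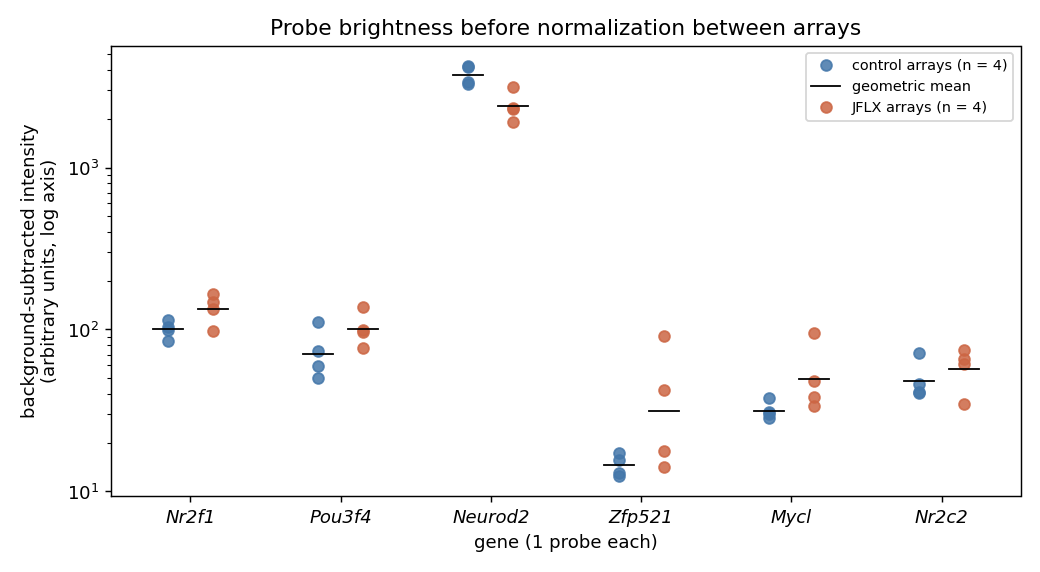
Background-subtracted intensity (vertical, arbitrary units on a log axis) of the 6 genes (horizontal) on the 4 control and 4 JFLX arrays, with geometric means as black lines. Neurod2 in JFLX lies wholly below its controls, and for Zfp521 2 of the 4 JFLX arrays, at 42.2 and 91.2, lie well above the control range of 12.5 to 17.3. Levels of different probes are not comparable.

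On the intensity scale every difference was lower by 0.18 than on the deposited scale, a constant over the listed probes, so that Nr2f1 stood at 0.41, Pou3f4 at 0.51, Mycl at 0.65, Zfp521 at 1.12, Nr2c2 at 0.24 and Neurod2 at -0.65. The size of the 5 higher differences therefore rests in part on the scaling between arrays, and that of Neurod2 grows without it. Centring the arrays on the 75th percentile of their values shifted all differences by -0.195, and Nr2c2 stood at 0.23 and Neurod2 at -0.66. Centring each probe on its control median draws control values towards 0 but not JFLX values, and a narrower spread lowers the 75th percentile. How much of the shift comes from this was not tested. A negative shift is thus in part built in, and centring on the median shifted all differences by -0.051. Quantile normalization left Nr2f1 at 0.29, Pou3f4 at 0.28, Nr2c2 at 0.15 and Zfp521 at 0.82, each more than 1.5 times smaller than reported. It too was applied to the centred values, whose spread over all probes is narrower in controls in part through that centring. The read-me sheet puts controls and JFLX arrays in separate rows of the same slide, so the row and the treatment cannot be told apart.

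**Figure D4:**
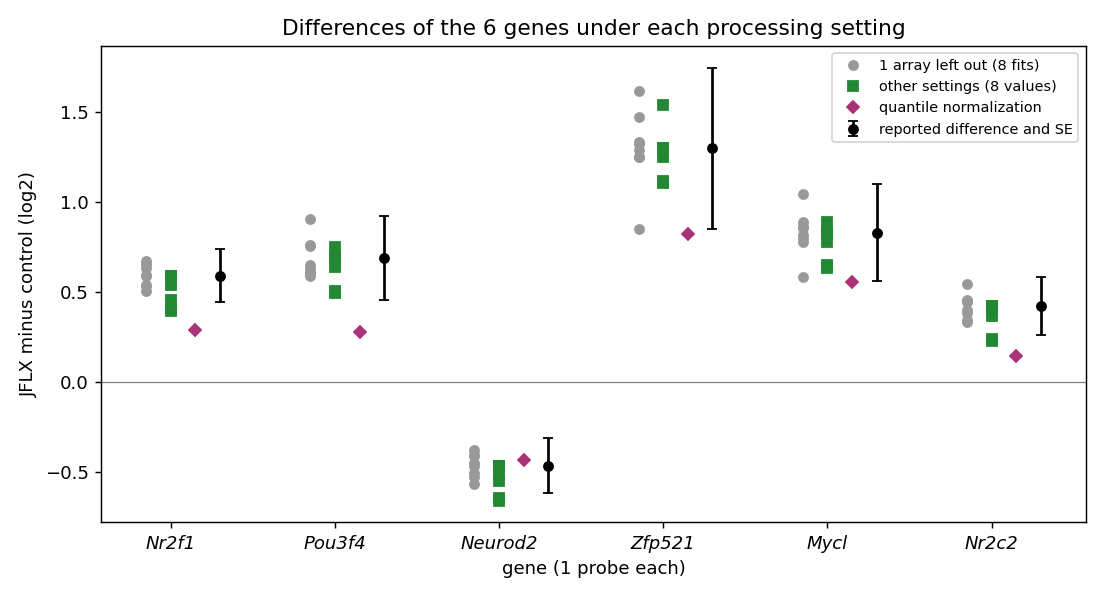
JFLX minus control difference (vertical, log2) of the 6 genes (horizontal) with 1 array left out, under quantile normalization and under the other settings, beside the reported difference with its SE (n = 4 per group). The 5 higher genes stay above 0 and Neurod2 below it in every setting shown, while quantile normalization brings Nr2c2 to 0.15.

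Other transcription factors of these families were looked up in 8 lists with 214 genes in all, of nuclear receptors and their cofactors, POU, basic helix-loop-helix and MYC-MAX factors, Zfp521 partners, and factors of cortical areas, layers and interneurons. Of these, 11 genes were listed by the authors, the 6 members and 5 others, 8 higher and 3 lower. The other genes of the lists carry no name on the array here, so how many of them have a probe is unknown. Over the whole array 3.83% of probes were listed. In limma 3 of the 11 passed an adjusted p of 0.05, where 6.25% of all probes did, 2 higher and 1 lower, and all 3 lay outside the members. Because a gene could be counted only if the authors had listed it on these arrays, the lists are not independent evidence. Chd3, a chromatin remodeller of the NuRD complex, to which the human counterpart of Zfp521 is known to bind, rose by 1.10 ± 0.18 (SE, n = 4 per group, adjusted p = 0.00882). Its JFLX values of 0.92, 0.87, 0.89 and 1.56 all lay above the controls, which ran from -0.26 to 0.12, and it passed in 13 of 16 other settings, the exceptions being quantile normalization, a replicate block and the fit without unlisted probes. Zbtb18, a repressor needed for cortical neuron development in mice, rose by 0.45 ± 0.10 (adjusted p = 0.0367), with JFLX at 0.34 to 0.50 and controls at -0.17 to 0.064. It passed in only 3 of 16 other settings and in 1 of the 8 fits that left out an array, that without JFLX replicate 4.

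Among the basic helix-loop-helix factors, 3 of 54 were listed. Beside Neurod2 these were Atoh7, a factor of retinal ganglion cell formation, at 0.88 ± 0.25 (adjusted p = 0.0959 in limma, not past the threshold), and Bhlha15, which passed in the lower direction (adjusted p = 0.00587) and kept the call in 13 of 16 other settings. The call was lost under quantile normalization (adjusted p = 0.0971), with trend and robust (0.107) and without the unlisted probes (0.0894). Bhlha15 was detected on 3 control and 0 JFLX arrays. Its mean control signal of 7.56 was under a JFLX bound of 16.3, so no fold is given. On each JFLX array the bound took the lowest signal of a listed probe detected throughout JFLX, or the gene's own signal where higher. It was averaged over the arrays in log2, and the shift of 0.18 between the intensity and deposited scales was added. The nuclear receptor Pparg, a regulator of fat storage, likewise had a detection flag on 4 control and 0 JFLX arrays and is given no fold, and its adjusted p in limma was 0.138. Of 48 nuclear receptors 3 were listed, of 14 POU factors and of 13 MYC-MAX genes 1 each, and of 16 nuclear receptor cofactors 0. Over the whole array 3.83% of probes were listed. These family counts include the members, and how many of the family genes have a probe is unknown, so nothing is read from them.

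Promoter windows from RefSeq (GRCr8, 300 bases around the transcription start) were found for all 6 members, with 2 overlapping starts for Zfp521. Those of Zfp521 and Nr2f1 were rich in G and C, at 76.3% for the first Zfp521 start and 70.3% for Nr2f1, above 97.6% and 92.1% of all 33469 promoters. GC content was 64.0% for Mycl, 57.3% for Pou3f4, 56.3% for Neurod2 and 46.7% for Nr2c2. Both strands were searched for AGGTCA, the core element of nuclear receptors, CAGATG, an E-box bound by NeuroD proteins, CACGTG, the E-box of MYC and MAX, ATGCAAAT, the octamer of POU proteins, and the general promoter elements TATAAA and CCAAT. The NeuroD E-box stood in 1 member, Neurod2 itself, 118 bases before the start, and in 16.6% of all promoters. CCAAT stood in 2 members, Neurod2 and Pou3f4, and in 37.5% of all promoters, and TATAAA in 1, Mycl, 30 bases before the start, and in 14.2%. The nuclear receptor element, the MYC and MAX E-box and the octamer were in 0 of the 6 windows and in 16.2%, 6.42% and 1.78% of all promoters. No matches overlapped in the members. The windows of Neurod2, the member with lower values, and of Pou3f4, the higher one that also holds CCAAT, are printed on their gene strand with these matches in capitals, at chr10:83824228-83824527 on the minus strand and chrX:79974558-79974857 on the plus strand.
Neurod2: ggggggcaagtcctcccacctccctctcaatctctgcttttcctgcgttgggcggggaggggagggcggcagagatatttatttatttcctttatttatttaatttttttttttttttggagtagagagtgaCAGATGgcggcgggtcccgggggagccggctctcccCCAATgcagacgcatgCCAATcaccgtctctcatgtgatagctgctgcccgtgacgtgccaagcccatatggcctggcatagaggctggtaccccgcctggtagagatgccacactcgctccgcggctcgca
Pou3f4: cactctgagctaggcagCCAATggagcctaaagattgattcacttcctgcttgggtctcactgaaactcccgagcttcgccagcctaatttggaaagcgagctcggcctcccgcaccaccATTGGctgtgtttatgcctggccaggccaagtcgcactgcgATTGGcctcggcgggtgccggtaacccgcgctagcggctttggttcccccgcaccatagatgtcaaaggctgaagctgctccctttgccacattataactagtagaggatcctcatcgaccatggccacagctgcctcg
A match of letters describes the window and shows no binding.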

How the data were processed

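RNA of 8 samples, labelled with Cy3, was hybridised to custom rat arrays by Agilent (per the labels' protocols). Deposited values are log2 centred by the authors on the control median of each probe, with 0 missing. The authors' lists give background-subtracted intensity per array, group means, a p-value and the count of arrays flagged detected, per the file headers; scanner software, normalization and test were not given in the sources used here. In each list 16 columns of fold and flag per array were not used. Of the listed probes 551 were named through RefSeq (GRCr8) and 31 kept the file's name.

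All 15207 probes were fitted with limma 3.58.1 in R 4.3.3 (lmFit, eBayes), two-sided, with Benjamini-Hochberg adjustment and a threshold of 0.05. The fit was tested on simulated data. Python 3.11.15, pandas 2.3.3, numpy 2.4.6 and matplotlib 3.10.9 served for tables and plots. With 4 arrays a group, their number limits the precision.

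The members and gene lists were chosen with earlier results of these data known. Genes named are all members, for each the 2 listed genes with the highest correlation of within-group deviations, and every listed gene of the lists on transcription factors, up to 6 a list. Of the 8 marker lists, 5 had listed genes.

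Tried as alternatives were centring on the 75th percentile or the median, quantile normalization, array weights, a trended and robust eBayes, an equal-variance t-test, the replicate number as a block, leaving out the unlisted probes that meet the authors' fold and p, leaving out each array, and log2 intensity.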

Additional observations from a re-analysis of the deposited data

Results flagged for a closer look

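Dixon's test was run on the 12 groups of 4 values of the members, and 0 exceeded its critical value for 4 samples. The closest was the control group of Pou3f4, where replicate 1 lay above the others by 0.797 of the range.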

How the results depend on the processing

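All 102 differences of the 6 members over 17 settings kept their direction, though settings that change only the test could not alter it, and each member has 1 probe, so averaging probes gave no value. The ranges were 0.29 to 0.67 for Nr2f1, 0.28 to 0.90 for Pou3f4, -0.66 to -0.38 for Neurod2, 0.82 to 1.62 for Zfp521, 0.56 to 1.04 for Mycl and 0.15 to 0.55 for Nr2c2. The reported counts were 0 members, 3 transcription factors of the lists, and 950 probes, 896 higher and 54 lower. A single member passed with 75th percentile centring (Neurod2), with array weights (Neurod2), without control replicate 1 (Pou3f4) and without JFLX replicate 3 (Mycl), so the count ran from 0 to 1 with an array left out. In these settings 903, 1160, 831 and 780 of the 15207 probes passed, in that order. The members were chosen on this contrast, so nothing is read from their calls. Quantile normalization gave 0 members with 3 at an unadjusted p under 0.05, 0 of the transcription factors, and 0 probes, 0 higher and 0 lower. It forces the arrays to share 1 distribution, and the JFLX arrays had an SD of 0.64 to 0.74 over all probes against 0.35 to 0.52 in controls. Centring each probe on its control median draws control values towards 0, so a narrower spread of the control arrays is in part built in. Within groups the median SD of a probe was 0.24 in controls and 0.269 in JFLX. How much of the narrower control spread comes from the centring was not tested. What the counts under quantile normalization owe to it cannot be told. Without the unlisted probes the counts were 0 of the transcription factors and 6 probes, 6 higher and 0 lower; taking away 1117 probes of low p makes the adjustment harder for those that remain. Trend and robust gave 1 transcription factor and 0 lower probes. The 75th percentile, whose negative shift is in part built in, gave 221 lower and 682 higher probes, and array weights 113 lower. With an array left out, 742 to 875 higher and 19 to 62 lower probes passed, the lower count being 32, 19 and 35 without control replicates 2, 3 and 4 and 23 without JFLX replicate 1; the cause was not tested.

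With the replicate number as a block, 0 members, 1 transcription factor (Bhlha15) and 764 probes passed, 743 higher and 21 lower. The numbers do not pair the arrays: deviations of same-numbered arrays correlated at -0.044, 0.395, 0.115 and -0.277, and 1 of 4 control arrays correlated best with its own number.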
